A study of Mus musculus with 6 samples.

Results

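Smad3 regions that lack at least one of Tgif1, Tgif2, Hdac1 and Nanog were described in mouse embryonic stem cells of the J1 line that contain BirA. Each region is the union of ChIP-seq peaks from 5 lists that overlap by 1 bp or more on chromosomes 1 to 19 (mm9). Of 32551 such merged regions, 1167 held a Smad3 peak, and 505 of these lacked a peak of at least 1 of the other 4 factors (43.3%, 95% Wilson interval 40.5 to 46.1). The other 662 Smad3 regions held all 4. Over all merged regions 87.6% lacked at least 1 of the 4 factors. The 505 members were chosen by the peak calls themselves, so their number and the factors they lack describe the lists and are not tested.

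ChIP-seq maps where a protein sits on DNA by sequencing the fragments that are precipitated with it. Every library came from J1 cells with the biotin ligase BirA, grown in serum with leukemia inhibitory factor and fixed with formaldehyde, and the labels name no treatment. Antibodies were used for Smad3, Tgif1 and Hdac1, while streptavidin beads, which bind biotin, pulled down Nanog and Tgif2. Only 1 library, with 1 peak list, was used per factor. The labels do not say whether the lines were single clones, and peak lists give no expression from which markers of the cell type could be read. The BirA control library was not analysed here, so control values are missing beside those given, and with no replicate no difference could be tested. Intervals are over regions, or over pairs of a region and a missing factor where pairs are named. They cover counting error only, and regions of 1 library are not replicates.

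Smad3 is the transcription factor that carries TGF-beta, Activin and Nodal signals from their receptors to chromatin. It binds DNA weakly by itself and is known to be brought to sites by factors of the cell type, in embryonic stem cells by those of the pluripotency network. Nanog is a homeodomain factor of that network. Tgif1 and its paralog Tgif2 are homeodomain corepressors that can bind Smad proteins, and Hdac1 removes acetyl groups from histones as a subunit of corepressor complexes. By its title, the study was about Tgif1 in the maintenance of stem cell identity. The Smad3 regions that lack some of these factors show in which combinations Smad3 appeared without the full set. Every peak carries the authors' number of tags (sequenced reads in the peak) and the authors' fold enrichment over background, 2 columns without a header that were identified from their values. They describe and rank peaks within a list.

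The Smad3 list was short, with 1226 peaks against 16400 to 19129 in the other lists, and 1199 of its peaks lay on chromosomes 1 to 19. Its median peak held 26 tags and its weakest 11. How deeply each library was sequenced is unknown. A missing peak means that none was listed, not that the factor was absent. No mm9 sequence or annotation was used, so regions are given by their deposited coordinates, without genes.

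The Tgif factors were missing most often and Nanog least often. Tgif2 had no peak in 404 of the 505 regions (80%, 76.3 to 83.3) and Tgif1 in 352 (69.7%, 65.6 to 73.5). Hdac1 was missing from 211 (41.8%, 37.6 to 46.1) and Nanog from 109 (21.6%, 18.2 to 25.4). Over all merged regions, no Tgif2 peak was found in 43.8%, no Tgif1 peak in 52.0%, no Hdac1 peak in 50.9% and no Nanog peak in 50.3%. The selection raises every one of the members' shares, since a region needs a missing factor to be counted. Among all 1167 Smad3 regions the shares lacking Tgif2, Tgif1, Hdac1 and Nanog were 34.6%, 30.2%, 18.1% and 9.34%. Each step of this order, taken by itself, held on most chromosomes, but not always on the same ones. More members lacked Tgif1 than Hdac1 on 18 of 19 chromosomes and Hdac1 than Nanog on 16, with 1 tie. More lacked Tgif2 than Tgif1 on 12, with 3 ties.

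The members lacked from 1 to all 4 factors, and the 15 possible combinations all had members. Just 1 factor was missing from 175 regions (34.7% of members), 2 from 163 (32.3%), 3 from 93 (18.4%) and all 4 from 74 (14.7%). The most frequent combination was Smad3 with Hdac1 and Nanog and neither Tgif, with 128 regions (25.3%). Smad3 with Tgif1, Hdac1 and Nanog, lacking only Tgif2, followed with 95 regions (18.8%). Smad3 with Nanog as the only partner had 80 regions, and Smad3 alone had 74. Tgif1 was the only missing factor in 47 regions, Hdac1 in 23 and Nanog in 10. The remaining 8 combinations held from 3 to 12 regions each.

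**Figure D1:**
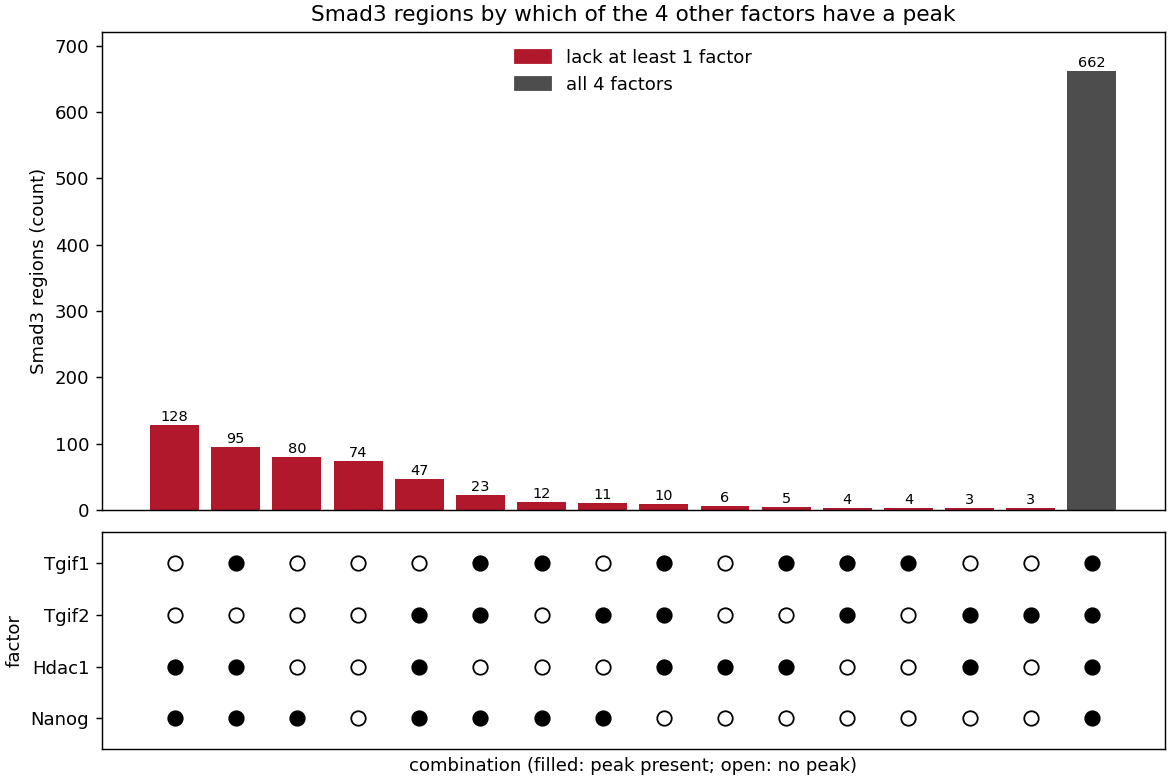
Number of Smad3 regions (vertical axis, count) in each combination of the 4 other factors, with the combinations that lack at least 1 factor in red and the complete one in grey. Filled circles mark factors with a peak. Hdac1 with Nanog leads the incomplete combinations with 128 regions, and the complete combination has 662.

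Most members with any partner had Nanog or Hdac1. Neither was found in 85 members, of which 74 were the regions with Smad3 alone. Of the 396 members with Nanog, 270 also held Hdac1. A Tgif factor as the sole partner of Smad3 was rare, with Tgif1 in 4 regions and Tgif2 in 3, and Hdac1 was the sole partner in 6. Both Tgif factors were absent together from 288 members. In 37 members both were present, and in those Hdac1, Nanog or both were missing.

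Where only 1 of the paralogs remained it was more often Tgif1, while over all regions without Smad3 it was more often Tgif2. Tgif1 without Tgif2 was found in 116 members and Tgif2 without Tgif1 in 64, so Tgif1 made up 64.4% (57.2 to 71.1) of the 180 members with a single paralog. In regions without Smad3, Tgif1 made up 34.9% (33.9 to 35.9) of 8978 single-paralog regions, with 3130 against 5848. Limiting both sides to regions with Nanog gave 64.8% (57.3 to 71.7) with Smad3 and 45.7% (43.7 to 47.8) without. Regions with both Nanog and Hdac1 but no Smad3 gave 48.6% (45.9 to 51.3), near an even split, and 95 of the Tgif1 and 47 of the Tgif2 members held both.

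The share of regions that carried Smad3 was counted for each combination of partners. Over all merged regions 3.59% held a Smad3 peak. Of 726 regions with Tgif1, Hdac1 and Nanog but no Tgif2, 95 held Smad3 (13.1%, 10.8 to 15.7). Of 715 with Tgif2, Hdac1 and Nanog but no Tgif1, 47 did (6.57%, 4.98 to 8.63), close to the 6.88% (5.81 to 8.12) of 1861 regions with Hdac1 and Nanog alone. The complete set of 4 factors carried Smad3 in 16.4% (15.3 to 17.6) of 4033 regions. When every list was limited to its stronger peaks, from the median fold up, the shares were 13.9% (10.8 to 17.6) with Tgif1 and 9.68% (6.74 to 13.7) with Tgif2, and these intervals overlap. No test of these differences exists without replicates.

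Nanog stood in every combination with a share above 1%. The 7234 regions with Nanog alone carried Smad3 in 1.11% (0.890 to 1.37). Nanog with Tgif1, with Tgif2 or with both, but without Hdac1, carried it in 2.94% (12 of 408), 1.96% (11 of 561) and 3.54% (23 of 650). Without Nanog the shares were low throughout. The 4905 regions with Tgif1, Tgif2 and Hdac1 held Smad3 in 10 cases (0.204%, 0.111 to 0.375). Tgif1 with Tgif2 held it in 4 of 2792 regions, Tgif2 alone in 3 of 3375 and Hdac1 alone in 6 of 1844.

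**Figure D2:**
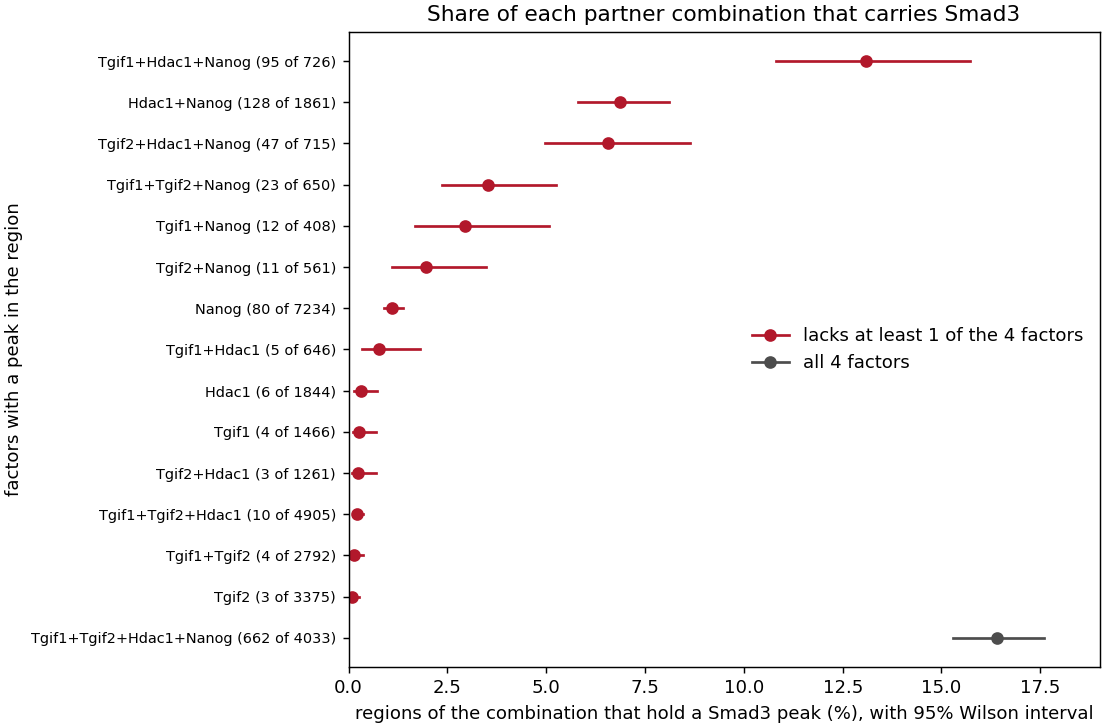
Percentage of regions of each partner combination that hold a Smad3 peak (horizontal axis), with 95% Wilson intervals as lines and the counts in brackets. Combinations with Hdac1 and Nanog lie to the right, from 6.57% to 13.1% among the incomplete ones and at 16.4% for the complete one, and those without Nanog lie below 1%.

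Smad3 tags were lower in members than in complete regions, and Smad3 fold enrichment differed little. Among members, median tags were also lower with more factors missing. The intervals of each number from 1 to 4 and the next overlapped, but those of 1 and 3 missing did not. The leading Smad3 peak of a member held from 11 to 1141 tags, with a median of 20 (order-statistic interval 19 to 21) and quartiles of 16 and 29. In regions with all 4 factors it held from 12 to 539 tags, with a median of 32 (30 to 33) and quartiles of 23 and 45.75. The ranges overlap, and so do the spans between the quartiles. With 1 factor missing the median was 24 tags (21 to 28), with 2 missing 20 (19 to 23), with 3 missing 17 (16 to 20) and with all 4 missing 16.5 (14 to 19). At least 50 tags were reached by 43 of the 505 members (8.51%) and by 137 of the 662 complete regions (20.7%). Median Smad3 fold was 9.47 (8.95 to 9.72) in members and 9.81 (9.42 to 10.1) in complete regions.

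Smad3 peak width moved with the tags. The median Smad3 peak covered 616 bp in members and 760 bp in complete regions. By the number of missing factors it was 675 bp with 1 missing, 626 bp with 2, 580 bp with 3 and 504 bp with 4. Across the 505 members, tags and width had a rank correlation of 0.76, and tags and fold one of 0.20. These are descriptions over peaks of a single library, in which a wider peak holds more tags. Per kb of Smad3 peak the medians were 34.0 tags in members and 41.7 in complete regions, a ratio of 0.816 against 0.625 for tags per peak. The part of peak width in the overlap with other factors was not tested.

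Among combinations with the same number of missing factors, the medians varied but their intervals, where there were regions enough to give one, overlapped. Of regions lacking a single factor, those without Hdac1 had the highest median Smad3 tags, with a median of 39 (19 to 79) over 23 regions. Their quartiles of 19 and 86.5 span the median of the complete regions. Regions lacking only Tgif2 had a median of 25 tags (22 to 28), those lacking only Tgif1 24 (20 to 30) and those lacking only Nanog 17 (13 to 29). The last group held no Smad3 peak above 32 tags. The large group with Hdac1 and Nanog had a median of 19.5 tags (18 to 22) and the group with Nanog alone 17 (16 to 19). Within Hdac1-free combinations, 12 regions with Tgif1 and Nanog and 11 with Tgif2 and Nanog had medians of 24 and 23 tags.

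**Figure D3:**
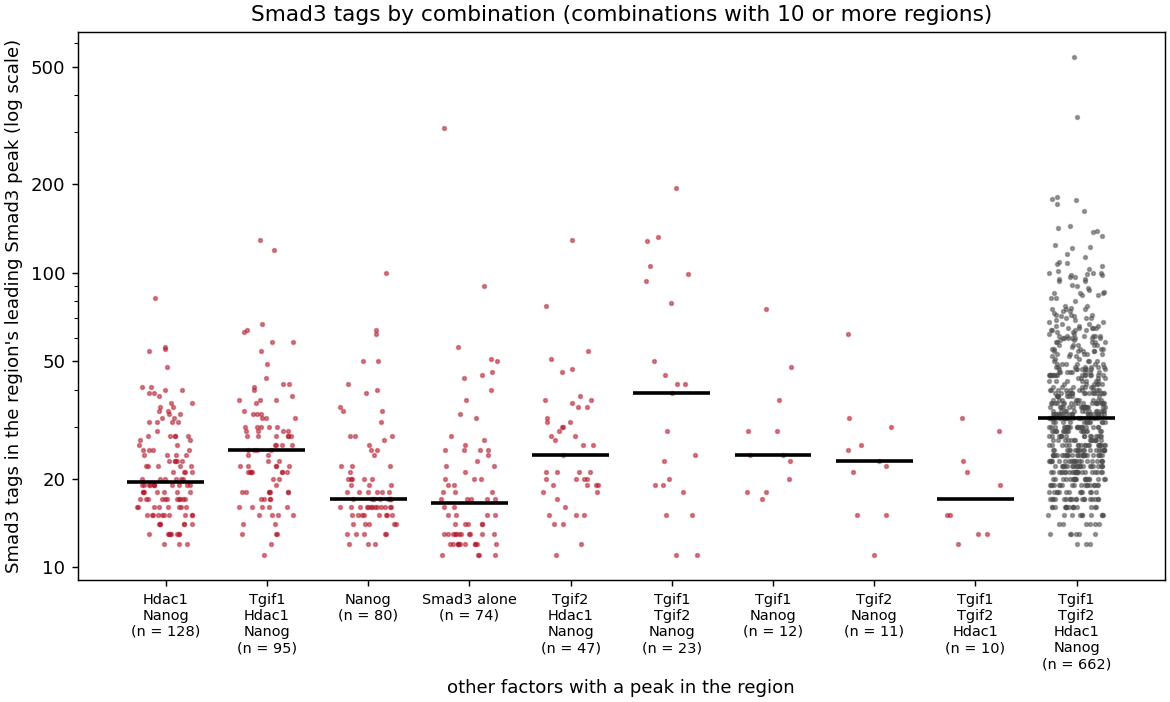
Smad3 tags in the leading Smad3 peak (vertical axis, log scale) of every region, by the other factors present, for combinations with 10 or more regions. Bars mark medians. Members are in red and complete regions in grey. The medians run from 16.5 tags for Smad3 alone to 39 for regions lacking only Hdac1, against 32 for complete regions.

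Read from the Smad3 list, weak peaks were mostly incomplete and strong ones mostly complete. The 1167 Smad3 regions were put in 5 bins by tags. The bins were of nearly equal size, and regions tied at a limit were divided between neighbouring bins. Of the 234 in the weakest bin, from 11 up to 17 tags, 177 were members (75.6%, 69.8 to 80.7). Of the 233 with 45 tags or more, 51 were (21.9%, 17.1 to 27.6). The bins between gave 52.8%, 38% and 27.9% in rising order of tags. Tgif1 was lacking from 62.0% of the weakest bin and 10.7% of the strongest, and Tgif2 from 65.0% and 14.2%. Nanog was lacking from 23.9% of the weakest bin and 6.01% of the strongest. Hdac1 was lacking from 40.2% of the weakest bin, 6.87% of the fourth and 12.0% of the strongest. By fold the share of members did not follow a line, at 38%, 53.6%, 50.9%, 39.9% and 33.9% in rising order.

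The partners that remained in members had fewer tags than in complete regions, and Nanog and Hdac1 differed from the Tgif factors in how they compared with their own lists. Nanog peaks in members had a median of 82 tags (72 to 92, n = 396), against 136 (127 to 146) in complete regions and 28 in Nanog regions without Smad3. That median of 82 stood at percentile 87.4 of the Nanog list. Hdac1 peaks had a median of 51 tags (47 to 54, n = 294) in members, against 85 in complete regions and 46 in Hdac1 regions without Smad3. Tgif1 peaks had 43 tags (40 to 47, n = 153) in members, against 79 in complete regions and 54 without Smad3. Tgif2 peaks had 48 tags (43 to 54, n = 101) in members, against 82 in complete regions and 58 without Smad3. The sets without Smad3 include regions with all 4 factors, which members cannot be, so they differ from members in combination. Those 3371 regions had medians of 65 Tgif1 and 70 Tgif2 tags. Within regions of Tgif1, Hdac1 and Nanog, Tgif1 had 39 tags with Smad3 and 41 without. The median tags of members stood at percentile 30.5 of the Tgif1 list, 34.5 of the Tgif2 list and 55.8 of the Hdac1 list. By fold the members did not stand lower throughout. Hdac1 had a median fold of 14.8 (13.7 to 15.6) in members and 13.7 (13.2 to 14.2) in complete regions. For Tgif1 it was 14.7 (12.9 to 16.4) in members, an interval that holds the 13.3 of regions without Smad3, and 17.3 (16.3 to 18.1) in complete regions. Tgif2 and Nanog also had lower median fold in members than in complete regions, at 14.2 against 15.7 and 51.4 against 58.5.

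High Nanog tags marked the Smad3 regions within every combination that contains Nanog. In regions with Nanog alone, the Nanog peak had a median of 56.5 tags (50 to 71) with Smad3 and 24 (23 to 24) without. With Hdac1 and Nanog the medians were 78 (69 to 96) with Smad3 and 34 (33 to 35) without. With Tgif1 added they were 89 (76 to 115) and 41 (38 to 43), and with Tgif2 added in its place 99 (67 to 137) and 36 (34 to 38). Regions with Tgif1, Tgif2 and Nanog had 136 (57 to 312) with Smad3 and 28 (27 to 30) without. The intervals of the paired medians did not meet in any of the 8 combinations. The ratio of the medians ran from 2.17 to 6.18 among the incomplete combinations and was 3.58 for the complete one. Nanog fold differed likewise, with medians of 51.6 with Smad3 and 25.3 without in the regions with Hdac1 and Nanog. There the Nanog peaks were wider as well, at 792 bp with Smad3 and 663 bp without, and held 86.2 and 52.8 tags per kb.

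For the other partners the same comparison gave smaller differences, in either direction. Hdac1 in regions with Hdac1 and Nanog had a median of 44.5 tags with Smad3 and 37 without. Tgif1 in regions with Tgif1, Hdac1 and Nanog had 39 tags with Smad3 and 41 without. Tgif2 in regions with Tgif2, Hdac1 and Nanog had 43 tags with Smad3 and 45 without, and Hdac1 there had 66 and 46. Tgif tags were higher with Smad3 in the complete set, at 79 (75 to 83) against 65 for Tgif1 and 82 (77 to 87) against 70 for Tgif2. In regions with Tgif1, Tgif2 and Nanog, Tgif1 had 70 (40 to 134) against 50, and Tgif2 had 76 (53 to 106) against 55. Where Nanog was missing, the 10 regions with Tgif1, Tgif2 and Hdac1 had medians of 42 (37 to 88), 50.5 (37 to 73) and 50 (35 to 70) tags. The 4895 such regions without Smad3 had 62, 73 and 51, values that these intervals include.

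**Figure D4:**
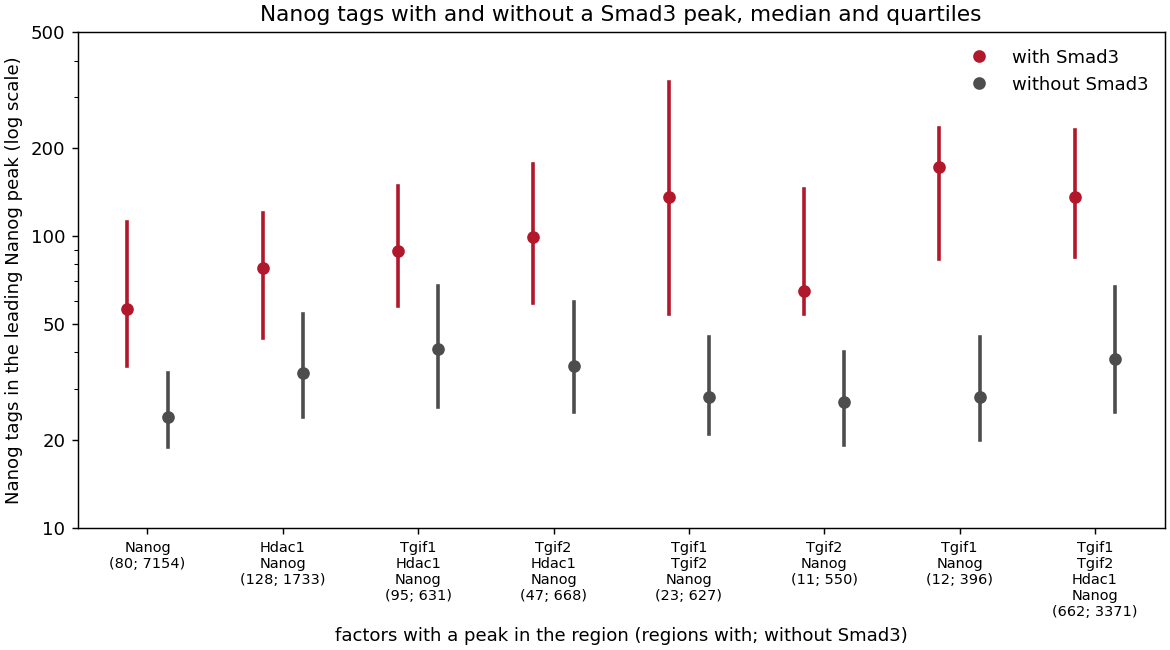
Nanog tags in the leading Nanog peak (vertical axis, log scale) of regions with Smad3 in red and without Smad3 in grey, for each combination that contains Nanog. Points are medians, lines run between the quartiles, and the numbers of regions stand in brackets. The red median lies above the grey one in all 8 combinations.

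The Smad3 share of each combination was also counted within bins of Nanog tags. In the strongest of 5 bins of Nanog regions by Nanog tags, 25.8% (24.3 to 27.4) of 3237 regions held Smad3, against 0.371% in the weakest. The strongest bin ran from 60 to 1349 Nanog tags, so combinations within it were not matched for Nanog tags. Within that strongest bin Smad3 was present in 27.0% (21.9 to 32.7) of regions with Tgif1, Hdac1 and Nanog and in 17.2% (12.6 to 23.0) of those with Tgif2, Hdac1 and Nanog. Hdac1 with Nanog gave 19% (15.6 to 22.9), Nanog alone 7.10% (5.20 to 9.64) and the complete set 37.1% (34.7 to 39.5). The intervals of the Tgif1 and Tgif2 combinations meet in this bin. Weaker bins did not keep the same order. In the fourth, the complete set gave 6.73% (5.26 to 8.56), and Tgif1, Hdac1 and Nanog gave 10.4% (6.81 to 15.5). In the third these were close, at 2.54% and 2.52%. In the weakest, the complete set held Smad3 in 1 of 408 regions (0.245%), and Hdac1 with Nanog in 5 of 219 (2.28%).

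A peak of a missing factor was seldom within 1 kb, in members as in regions without Smad3. Over 1076 pairs of a member and a factor it lacked, the nearest peak of that factor lay a median of 24.8 kb away (21.8 to 29.6). It was within 1 kb in 7.99% of pairs, within 10 kb in 34.3% and within 100 kb in 75%. Regions without Smad3 had similar values at short range, with a median of 22.6 kb and shares of 7.28% within 1 kb and 33.4% within 10 kb. At 100 kb the shares were 75% (72.3 to 77.5) for members and 81.8% (81.5 to 82.1) for regions without Smad3. A region that lacks several factors enters these pairs once per factor, often at similar distances. The intervals treat the pairs as independent and so are too narrow. Hdac1 had the shortest median in members, 19 kb (14.2 to 26.1), and Nanog the longest, 34.4 kb (21.9 to 49.8). Of the 505 members, 52 had a missing factor within 1 kb, 210 had one within 10 kb, and 101 had every missing factor beyond 100 kb. Among the 74 regions with Smad3 alone, 34 had a peak of another factor within 10 kb, and 11 had none within 100 kb.

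**Figure D5:**
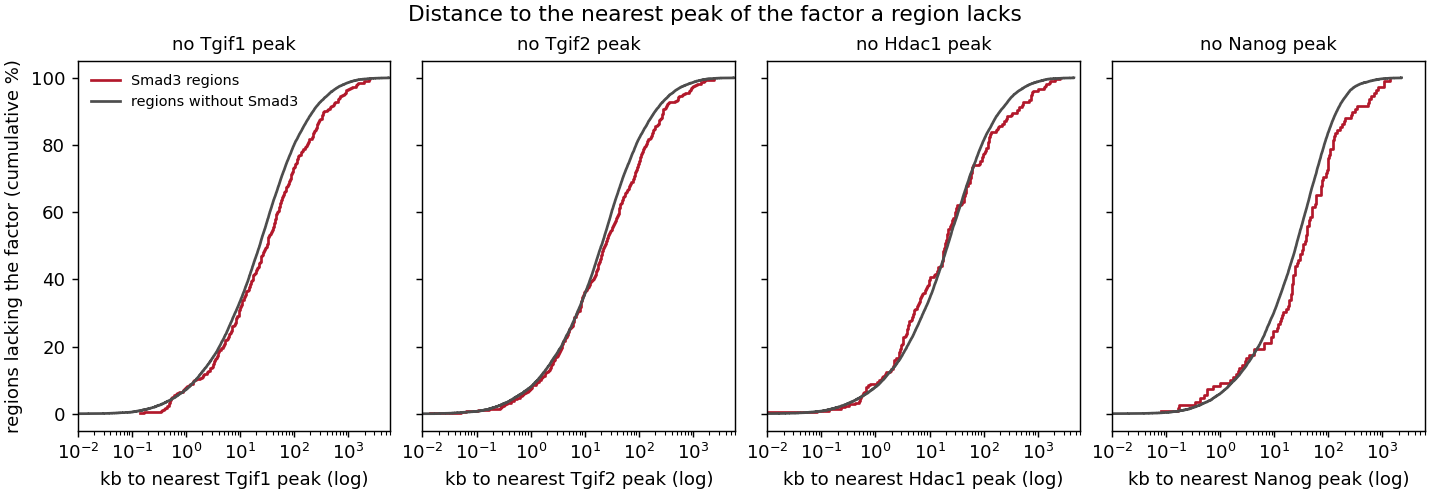
Cumulative percentage (vertical axis) of regions that lack a factor, by distance in kb to the nearest peak of that factor (horizontal axis, log scale), for Smad3 regions in red and regions without Smad3 in grey. The curves lie close together up to about 10 kb, and the red ones then run lower, with 75% of Smad3 pairs within 100 kb against 81.8%.

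Near the limit of the selection, 20 complete regions were joined to a factor only through another peak, since their leading Smad3 peak did not touch every factor. When each factor's overlap with any other peak of its region was taken, the 3 lowest values among complete regions were 354 bp (Tgif1, chr12:120004688-120005583), 387 bp (Nanog, chr6:113346399-113347284) and 390 bp (Nanog, chr9:57850842-57852176). Their Smad3 peaks had 19, 17 and 32 tags. On the other side, chr11:100478117-100479322 lacked only Tgif2 by a gap of 14 bp and had 17 Smad3 tags. At chr4:123331403-123333122 the Tgif2 peak was 78 bp away, with 16 Smad3 tags. At chr2:154253169-154255143 the Hdac1 peak was 84 bp away, with 79 Smad3 tags.

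Where a partner remained, its summit lay close to that of Smad3. A partner was counted only where its peak joined the region by overlap. Short distances, and Smad3 summits inside the partner's peak, are thus largely set by the selection. The median distance from the Smad3 summit to the Nanog summit was 41.5 bp (36 to 45) in members and 31.5 bp (28 to 35) in complete regions. For the Tgif factors the order was turned, with 42 bp (34 to 57) in members and 52 bp (48 to 58) in complete regions for Tgif1, and 48 bp (40 to 58) and 68 bp (61 to 73) for Tgif2. Hdac1 had 43 bp (35 to 51) in members and 47 bp (44 to 52) in complete regions. The Smad3 summit lay inside the Nanog peak in 391 of 396 members with Nanog, and inside the Hdac1 peak in 293 of 294 with Hdac1. Only 5 of the 505 members held a factor that their leading Smad3 peak did not itself touch, against 20 of the 662 complete regions, which hold more factors each.

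Members were spread over all 19 chromosomes, from 16 on chromosome 19 to 40 on chromosome 11. They made up 33.3% (23.9 to 44.4) of the 78 Smad3 regions on chromosome 1 and 62.5% (45.3 to 77.1) of the 32 on chromosome 16, the extremes. Members stood more apart from other Smad3 regions than complete regions did. The nearest Smad3 region of any kind lay a median of 444 kb from a member (355 to 514) and 179 kb from a complete region (140 to 259). A complete region lay within 10 kb of 37 members (7.33%), and another member within 10 kb of 33 (6.53%).

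The 10 members with the most Smad3 tags were of mixed kinds. The region with the highest, chr15:74915638-74917773, had 1141 Smad3 tags, 2391 Tgif1 tags and 1758 Tgif2 tags, and no Hdac1 or Nanog peak. Its Smad3 fold of 5.08 was low, and the nearest Hdac1 and Nanog peaks were 128609 and 128697 bp away. Next was chr8:66164700-66164970, a Smad3 peak alone with 309 tags in 270 bp at 7.93-fold. At chr3:71331233-71331445 a peak of 212 bp held 107 Smad3 tags at 4.57-fold, with Tgif1 as the only partner at 2.83-fold. These were the only 3 members above 200 Smad3 tags per kb, and 1 complete region, chr18:40467355-40468348, passed that level too. Without these dense peaks 502 members remained, with a median of 20 tags.

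Of the other leading members, 4 lacked only Hdac1 and had strong Nanog peaks. At chr13:66811075-66813383 there were 194 Smad3 tags, 403 Tgif1, 455 Tgif2 and 579 Nanog tags, with an Hdac1 peak 2744 bp away. At chr8:119196826-119199051 there were 132 Smad3 and 312 Nanog tags, and at chr1:12734216-12735664 there were 128 and 496. At chr1:133786327-133788583 there were 105 Smad3 tags at 22.4-fold and 580 Nanog tags at 184-fold. Tgif1 and Tgif2 had from 131 to 455 tags in these 4 regions.

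Regions that lacked a single Tgif paralog, and so held Hdac1 and Nanog by the choice made, differed in their Nanog tags. At chr18:56843611-56844328, without Tgif2, Smad3 had 129 tags at 32.6-fold, against 106 Tgif1, 90 Hdac1 and only 41 Nanog tags. At chr1:121294877-121296243, also without Tgif2, there were 119 Smad3 and 392 Nanog tags, with a Tgif2 peak 8504 bp away. At chr5:120034129-120035708 there were 67 Smad3 and 278 Nanog tags and no Tgif2. Without Tgif1, chr6:39395348-39396826 had 129 Smad3 and 326 Nanog tags and 92 Tgif2 tags, and chr6:100327506-100329329 had 77 Smad3 and 366 Nanog tags. At chr17:10558261-10560690, likewise without Tgif1, Smad3 had 54 tags and Nanog 25.

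Members lacking only Nanog were weak. The leading one, chr9:67055913-67056887, had 32 Smad3 tags beside 88 Tgif1, 73 Tgif2 and 48 Hdac1 tags, and a Nanog peak 339 bp away. At chr16:48434860-48436247 Smad3 had 29 tags and Hdac1 83, with Nanog 11796 bp away. At chr19:25560863-25561727 Smad3 had 23 tags and Nanog lay 1009 bp away.

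Leading regions with fewer partners differed in their Nanog tags. At chr3:135208784-135211348, with Hdac1 and Nanog but neither Tgif, Smad3 had 82 tags at 34.2-fold, Hdac1 173 and Nanog 181 tags. At chr1:103652920-103654432 Nanog was the only partner, with 441 tags beside 100 Smad3 tags, and the nearest Tgif1 peak was 1524257 bp away. At chr3:133187290-133188602, with Tgif1 and Nanog, Smad3 had 75 and Nanog 304 tags. At chr14:61576198-61577404, with Tgif2 and Nanog, Smad3 had 62 and Nanog 297 tags. By fold, chr2:87321113-87322041 (27.5-fold, with Hdac1 and 48 Nanog tags) and chr17:33736343-33737448 (25.9-fold, lacking only Tgif2, Nanog 246-fold) were also among the leading 5.

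Regions with Smad3 alone included the highest Smad3 fold of all members. It was 37.5, at chr13:105275310-105275936, with 90 tags, and the nearest other peak, of Tgif2, was 31938 bp away. At chr19:37303405-37303904 there were 56 tags at 9.88-fold, and the nearest other peak, of Tgif1, was 20021 bp away. At chr5:122595262-122595826 (18.1-fold, 37 tags) and chr2:104658967-104659343 (16.7-fold, 25 tags), by contrast, peaks of all 4 factors lay between 322 and 1367 bp away.

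The combinations with 3 members or fewer held Tgif2 without Tgif1 or Nanog. Tgif2 with Hdac1 and no Tgif1 or Nanog was found at chr4:148421141-148421906, chr17:22255503-22256469 and chr17:45743749-45744797, with 12, 17 and 38 Smad3 tags. Tgif2 as the only partner was found at chr3:120993841-120995403, chr15:100122537-100123401 and chr18:38039441-38040269, with 12, 20 and 13 Smad3 tags. Tgif2 tags in these 6 regions ran from 33, the minimum of the Tgif2 list, to 79.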

How the data were processed

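Peak lists of 5 ChIP-seq libraries of J1 mouse embryonic stem cells were used, 1 library per factor. Per the submitters' processing notes, reads were handled with BWA (0.5.9-r16) and MACS on mm9. Settings, threshold and the control of each list are unknown. The deposited lists have no header. Their fold enrichment (a ratio) and their count of tags per peak, both the authors' values, were identified from the values. Coordinates are as deposited, with an uncertainty of 1 bp.

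Peaks were merged where they overlapped by at least 1 bp on chromosomes 1 to 19. A region took the highest tags and fold of each list. Shares have 95% Wilson intervals and medians have order-statistic intervals, both for counting error only. No test was made, since each group has 1 library. Counts were tested on simulated regions set well apart, with peaks on a shared centre, which does not probe chained or nearly touching peaks. The real lists were checked against bedtools 2.31.1, which gave the same 32551 regions and 505 members. The members, comparisons and named regions followed rules written with earlier results of these data known. Regions were named by rank of Smad3 tags and fold, overall and within combinations. The planned motifs and gene names were not run, since no mm9 reference was used. Python 3.11.15 with NumPy 2.4.6, pandas 2.3.3, SciPy 1.17.1 and matplotlib 3.10.9 was used.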

Additional observations from a re-analysis of the deposited data

Results flagged for a closer look

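Smad3 regions outside chromosomes 1 to 19 were not among the members, and are given here as values only, because no other result uses them. On the X chromosome 20 of 23 Smad3 regions lacked at least 1 of the 4 factors. On chromosomes 1 to 19, 505 of 1167 Smad3 regions did (43.3%). Over all merged regions on chromosomes 1 to 19, with or without Smad3, that share was 87.6%. Tgif1 was lacking from 18 of the 23, Tgif2 from 17, Hdac1 from 13 and Nanog from 1. On the sequences chrUn_random and chrY_random, 4 of 4 Smad3 regions lacked a factor, and 3 of these held Smad3 alone. Of the 4, 1 had 172 Smad3 tags at 4.17-fold.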

How the results depend on the processing

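Of 174 alternative values over 16 results, 154 stayed close to the main value and 20 moved. Close means within 1.5 times for a count and within the 95% interval of the main value otherwise, so large shifts in counts can be among the 154. Members numbered from 408 with peaks from the median fold up to 677 with summits within 200 bp. Limited to peaks from the median fold up, members had a median of 30 Smad3 tags, 11.85-fold, 38168 bp to a missing factor and 32 bp between Smad3 and Nanog summits, and Smad3 shares of 9.68% with Tgif2, Hdac1 and Nanog and 2.11% with Nanog alone. At the lower quartile of fold these were 23.5 tags, 10.3-fold, 9.22% and 1.41%. With summits within 200 bp, 311 members lacked Hdac1 and 186 lacked Nanog, and the medians were 23 tags, 8720.5 bp and 35 bp, with 0.498% for Tgif1, Tgif2 and Hdac1. With 250 bp each side of the summit the medians were 22 tags and 16352 bp, and joining within 500 bp gave 29707 bp. The ratio of members to complete regions was 0.625 for tags, 0.816 per kb and 0.965 for fold. Leaving out dense Smad3 peaks, chromosome 1 or chromosome 11 and using fold in place of tags were alternatives chosen after the data were seen. The causes were not tested. The shares with Smad3 have no value where only direct overlaps with a Smad3 peak were used, and no replicate could be left out. No paired analysis was possible because each factor has 1 library. Depth is unknown, which limits what a missing peak can show.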
